A study of Mus musculus with 65 samples.

Results

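The comparison set Suv39h1KO dendritic cells against wild-type dendritic cells, both with an intact type I interferon receptor gene and both left unstimulated. It rests on 6 of the 65 libraries of the series, 3 per genotype, chosen by the genotype labels and paired by cohort number. All 6 come from bone marrow derived dendritic cells of C57BL/6 background, harvested at time 0 h, labelled as wild type for MyD88 and Trif and without a guide RNA. A second pair of groups from the same experiment, 3 double-knockout libraries (Suv39h1KO with IfnarKO) and 3 IfnarKO libraries, was used to set the response beside that of cells without the receptor. The series' design text calls the libraries of a condition biological replicates. How the alleles were made, the age of the mice, and whether a cohort is 1 mouse or a pool are not given in the sources used here.

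Suv39h1 is a histone methyltransferase that places trimethylation on H3K9, the mark read by HP1 proteins in constitutive heterochromatin at pericentromeric satellites and at many retrotransposons. Suv39h2 is its close paralogue with an overlapping activity. Transposable elements (TEs) are repeats descended from mobile DNA, and RNA from them can be sensed as if it were viral, which leads to type I interferon and, through the Ifnar1 and Ifnar2 receptor, to interferon-stimulated genes. The comparison asks which genes and TEs change when Suv39h1 is absent and nothing else has been added to the cells.

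Suv39h1 itself had 34, 16 and 7 counts in the Suv39h1KO libraries of cohorts 1, 2 and 3, against 4554, 3957 and 1859 counts in the wild-type libraries. In CPM, the usual per-library scaling of counts, here by the total gene count, this was 0.357, 0.181 and 0.111 CPM in Suv39h1KO cells, against 61.1, 48.9 and 42.8 CPM in wild-type cells, a log2 fold change of -7.86 ± 0.18 (standard error; adjusted p = 3.5e-10). Adjusted p throughout is from edgeR's quasi-likelihood test with the cohort as a block and Benjamini-Hochberg adjustment over all features tested, and 0.05 was the threshold. Suv39h2 had 7.47, 9.70 and 9.91 CPM in Suv39h1KO cells, against 6.99, 7.96 and 9.21 CPM in wild-type cells (adjusted p = 0.59), and the groups overlapped. Ifnar1 had 191, 215 and 192 CPM in Suv39h1KO cells, against 175, 199 and 171 CPM in wild-type cells (adjusted p = 0.518). The libraries held 63254373 to 95292653 gene counts in Suv39h1KO cells and 43420953 to 80933044 in wild-type cells. Xist stayed at or below 0.0268 CPM in the 6 libraries while the Y-linked Ddx3y lay between 82.3 and 101.9 CPM in Suv39h1KO cells and between 94.5 and 130.1 CPM in wild-type cells, so all 6 carried male transcripts. Itgax, which encodes the dendritic cell integrin CD11c, had 800.0, 838.0 and 956 CPM in Suv39h1KO cells, against 955, 824 and 953 CPM in wild-type cells.

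Of 14386 genes tested, 163 changed (1.13%), 84 of them higher (0.584%) and 79 lower (0.549%) in Suv39h1KO cells. Of the genes that rose, 44 of 84 (52.4%) averaged under 1 CPM in wild-type cells, against 17.8% of all genes tested. Among the 79 genes that fell it was 4 (5.06%). Genes tested needed a minimum count in a group, so the lowest of these could enter through another group alone. A gene near 0 in wild-type cells also has little room to fall. The contrast between rises and falls is therefore partly built in. The median log2 fold change was 1.91 among the genes that rose and -1.01 among those that fell, beside 0.01 over all genes. Of those that rose 41 did so by more than 2 on the log2 scale, while 6 fell by more than 2, Suv39h1 included. Protein-coding genes made up 76 of the 84 genes that rose, 76 of the 79 that fell and 93.2% of the genes tested. In 133 of the 163 genes the 3 Suv39h1KO libraries did not overlap the 3 wild-type libraries, whereas 8.53% of all tested genes were free of overlap.

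The number of calls depends on the pairing by cohort and on each library. Without the cohort block 30 of these genes were called (0.209% of those tested), and DESeq2 called 486 genes, all 163 among them. Leaving out the Suv39h1KO library of cohort 1, 2 or 3 left 62, 41 or 60 calls, and leaving out the wild-type library of cohort 1, 2 or 3 left 101, 40 or 44. In all 6 of these fits 32 of the 163 genes were called, 24 higher and 8 lower.

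**Figure D1:**
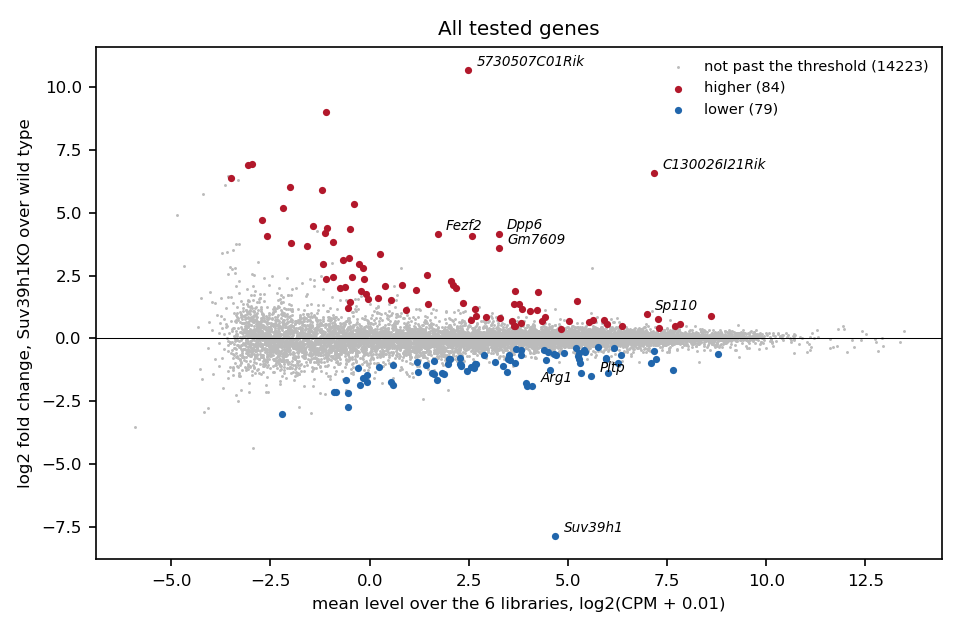
Log2 fold change, Suv39h1KO over wild type, of each of the 14386 tested genes (y axis) against its mean level over the 6 libraries as log2(CPM + 0.01) (x axis). Red points are the 84 genes that were higher, blue points the 79 that were lower, and grey points did not pass the threshold; most of the strong rises lie at low levels, and C130026I21Rik stands apart at a high level.

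The strongest change at a high level was on chromosome 1, in the Sp100 gene family, whose proteins carry a chromatin-reading part and lie in nuclear bodies in the better studied members. C130026I21Rik, a member of that family, had 289, 343 and 220 CPM in Suv39h1KO cells, against 3.15, 2.90 and 2.95 CPM in wild-type cells, a log2 fold change of 6.57 ± 0.15 (adjusted p = 3.5e-10). Gm7609 had 12.6, 15.2 and 25.3 CPM in Suv39h1KO cells, against 1.11, 1.33 and 1.89 CPM in wild-type cells (log2 fold change 3.59 ± 0.16, adjusted p = 3.52e-07). The groups were far apart at both genes. A530032D15Rik had 27.6, 40.4 and 22.01 CPM in Suv39h1KO cells, against 8.26, 9.82 and 6.54 CPM in wild-type cells (log2 fold change 1.86 ± 0.10, adjusted p = 1.83e-06). These 3 genes lie between positions 85088139 and 85282883 of chromosome 1 (RefSeq, GRCm38.p6, the assembly behind mm10). The rule for naming genes passed over them for their provisional symbols, and they are named after their values were seen.

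Farther along the same segment, Sp110 and Sp140 (chr1:85570735-85645040) also rose. Sp110 had 164, 200.4 and 136 CPM in Suv39h1KO cells, against 90.3, 95.7 and 72.0 CPM in wild-type cells (log2 fold change 0.96 ± 0.10, adjusted p = 0.000698). Sp140 had 231, 294 and 208 CPM in Suv39h1KO cells, against 164, 203 and 157 CPM in wild-type cells (log2 fold change 0.49 ± 0.09, adjusted p = 0.0297). Without the block the adjusted p of Sp140 was 1 and that of Sp110 0.238, and Sp140 was called in 0 of the 6 fits that leave out a library, Sp110 in all 6. No library of either group overlapped the other at these 2 genes, although the Suv39h1KO libraries of Sp140 came close to the highest wild-type one. Sp100, the founding member and next in order, had 98.2, 100.3 and 138 CPM in Suv39h1KO cells, against 93.7, 98.6 and 117 CPM in wild-type cells (adjusted p = 0.761). The next genes, A630001G21Rik, Cab39 and Itm2c, had log2 fold changes of 0.03, 0.02 and 0.13 and did not pass the threshold.

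Sequences before a listed RefSeq start of these genes are shown because the members that moved have windows close in sequence to those of other family members in the segment. The identity of the transcripts themselves was not measured. How reads that match more than 1 member of a family were counted is not given in the sources used here. The 250 bases before 1 listed start were read for C130026I21Rik (chr1:85270567-85270816, minus strand), A530032D15Rik (chr1:85109854-85110103, minus strand) and Sp140 (chr1:85600453-85600702, plus strand). All 3 windows lie inside the RefSeq gene spans (chr1:85241286-85282883, chr1:85088139-85110297 and chr1:85587491-85645040). They are therefore not sequence upstream of the whole gene. They were read 5′ to 3′ on the strand of the gene, GRCm38.p6, with the longest stretch that all 3 share, 108 bases, in capitals.
C130026I21Rik: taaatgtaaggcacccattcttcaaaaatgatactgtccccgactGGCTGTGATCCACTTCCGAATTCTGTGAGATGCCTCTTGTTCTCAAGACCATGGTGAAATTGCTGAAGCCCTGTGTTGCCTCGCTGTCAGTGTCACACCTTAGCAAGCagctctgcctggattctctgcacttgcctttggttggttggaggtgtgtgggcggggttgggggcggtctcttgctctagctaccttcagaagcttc
A530032D15Rik: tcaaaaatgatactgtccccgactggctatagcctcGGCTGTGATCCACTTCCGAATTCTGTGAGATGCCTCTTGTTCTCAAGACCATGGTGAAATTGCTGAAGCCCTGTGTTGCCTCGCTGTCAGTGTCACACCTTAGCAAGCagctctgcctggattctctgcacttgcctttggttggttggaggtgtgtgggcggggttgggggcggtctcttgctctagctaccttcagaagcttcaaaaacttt
Sp140: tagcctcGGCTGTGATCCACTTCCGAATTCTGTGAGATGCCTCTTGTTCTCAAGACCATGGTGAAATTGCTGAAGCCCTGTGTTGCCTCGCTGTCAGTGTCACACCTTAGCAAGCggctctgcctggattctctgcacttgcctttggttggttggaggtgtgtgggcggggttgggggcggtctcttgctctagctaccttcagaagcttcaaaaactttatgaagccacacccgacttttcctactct
The aligned part of the C130026I21Rik and Sp140 sequences was 205 bases long with 204 identical positions, and that of A530032D15Rik and Sp140 was 221 bases long with 220 identical positions. C130026I21Rik and A530032D15Rik were 95.0% identical over 241 aligned positions. The start positions differ, so the shared stretch sits at bases 46 to 153, 37 to 144 and 8 to 115 of the 3 windows.

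Gm7609 (chr1:85199361-85199610, plus strand), which rose, and Sp100 (chr1:85649738-85649987, plus strand), which did not pass the threshold, form a second pair. Their longest shared stretch, 202 bases, is in capitals.
Gm7609: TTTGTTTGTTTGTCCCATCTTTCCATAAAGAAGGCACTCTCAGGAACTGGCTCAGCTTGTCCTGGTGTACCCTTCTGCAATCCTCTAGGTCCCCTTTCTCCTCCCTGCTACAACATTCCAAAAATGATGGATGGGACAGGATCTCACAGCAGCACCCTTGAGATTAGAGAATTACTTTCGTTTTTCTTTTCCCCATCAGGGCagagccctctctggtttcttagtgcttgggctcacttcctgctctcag
Sp100: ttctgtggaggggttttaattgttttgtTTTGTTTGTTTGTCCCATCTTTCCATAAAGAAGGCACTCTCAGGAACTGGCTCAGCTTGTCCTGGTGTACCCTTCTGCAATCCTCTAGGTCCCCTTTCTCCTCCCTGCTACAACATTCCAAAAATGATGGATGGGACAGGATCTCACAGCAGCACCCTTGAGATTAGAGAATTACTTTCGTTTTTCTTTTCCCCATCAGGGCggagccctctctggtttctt
Over 222 aligned positions 221 were identical. Both windows end inside the gene spans, which begin at 85199592 for Gm7609 and 85649948 for Sp100.

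**Figure D2:**
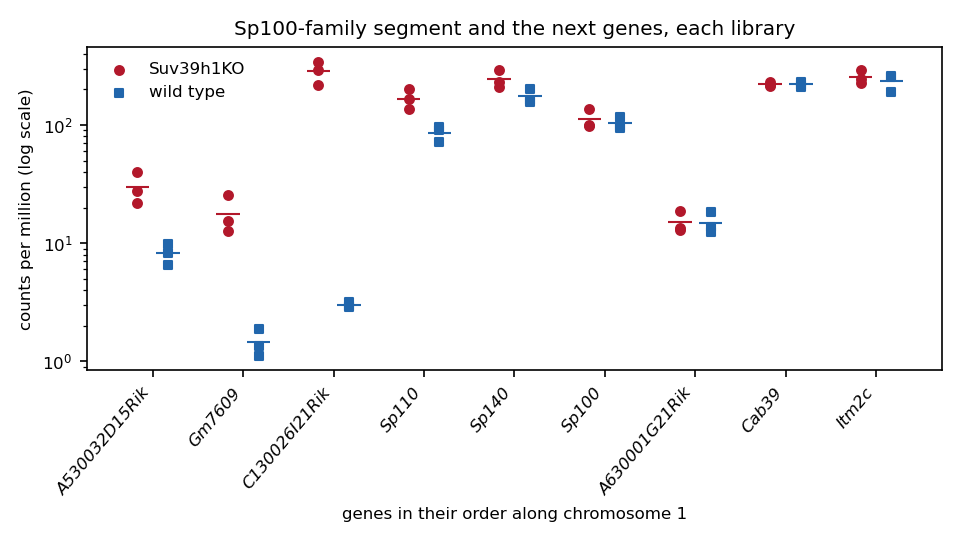
Level in CPM (log axis) in each library for 9 genes in their order along chromosome 1; red circles are the 3 Suv39h1KO libraries, blue squares the 3 wild-type libraries, and lines are means. A530032D15Rik, Gm7609, C130026I21Rik, Sp110 and Sp140 are higher in Suv39h1KO cells without overlap, while Sp100 and the 3 genes after it overlap.

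On chromosome 12, 3 genes with provisional symbols, 2 annotated as protein coding and 1700030C10Rik as a long non-coding RNA, had few or no counts in wild-type cells and rose. 5730507C01Rik (chr12:18514440-18538114) had 975, 1036 and 730 counts in Suv39h1KO cells, against 1, 0 and 0 counts in wild-type cells. 9030624G23Rik (chr12:24043528-24097256) had 71, 77 and 72 counts in Suv39h1KO cells, and 0 counts in every wild-type library. 1700030C10Rik (chr12:20804389-20815779) had 165, 114 and 64 counts in Suv39h1KO cells, against 6, 4 and 3 counts in wild-type cells. Each passed the threshold (adjusted p = 1.25e-07, 0.00291 and 0.00218), and no fold is given for the first of these genes and the second because the wild-type counts were at or near 0. They too are named after their values were seen, since the naming rule passes over Rik symbols.

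By the naming rule, the 15 largest rises and the 15 largest falls were described, among genes whose higher group averaged 5 CPM or more. Eligible were 25 genes that rose and 43 that fell. Dpp6, an accessory subunit of voltage-gated potassium channels in neurons, had 19.9, 18.4 and 15.8 CPM in Suv39h1KO cells, against 1.03, 1.71 and 0.184 CPM in wild-type cells (log2 fold change 4.18 ± 0.43, adjusted p = 0.000698). Fezf2, a zinc finger factor that specifies projection neurons of the cortex, had 5.85, 6.29 and 6.45 CPM in Suv39h1KO cells, against 0.308, 0.296 and 0.461 CPM in wild-type cells (4.17 ± 0.21, adjusted p = 1.07e-06). Its neighbour Cadps, which acts in the release of dense core vesicles, had 6.53, 11.2 and 16.1 CPM in Suv39h1KO cells, against 0.362, 0.346 and 1.54 CPM in wild-type cells (4.06 ± 0.36, adjusted p = 0.000281). All 3 genes were clearly detected in every Suv39h1KO library and low in wild-type cells. There Dpp6 and Cadps varied between cohorts and reached 1.71 and 1.54 CPM.

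Next in size were Ano2, a calcium-activated chloride channel (log2 fold change 2.30 ± 0.23), Tcaf2, a channel-associated factor (2.15 ± 0.28), and Septin3, a filament-forming GTPase known from brain (2.00 ± 0.37). Surface receptors of myeloid cells followed. Cd209a, a C-type lectin of dendritic cells, had 17.7, 18.3 and 23.7 CPM in Suv39h1KO cells, against 7.99, 2.68 and 6.24 CPM in wild-type cells (1.88 ± 0.37, adjusted p = 0.0381). Clec4a1, another C-type lectin receptor, had 17.2, 20.4 and 22.02 CPM in Suv39h1KO cells, against 8.17, 11.5 and 6.93 CPM in wild-type cells (1.18 ± 0.21, adjusted p = 0.0233). The lowest Suv39h1KO library exceeded the highest wild-type library at both lectins. Ms4a4c, of the MS4A family of membrane proteins, rose by 1.36 ± 0.25 and the scavenger receptor Colec12 by 1.37 ± 0.22 on the log2 scale. Pgf, the placental growth factor, had 36.1, 23.3 and 17.4 CPM in Suv39h1KO cells, against 16.5, 12.3 and 6.52 CPM in wild-type cells (1.14 ± 0.16, adjusted p = 0.00652). The Pgf level was highest in cohort 1 and lowest in cohort 3 in both genotypes. The vesicle calcium sensor Syt9 (1.41 ± 0.29), the sulfotransferase Ust (1.18 ± 0.23) and the RNA-binding protein Igf2bp3 (0.89 ± 0.18) complete these rises with Sp110.

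Among the falls was Arg1, the arginase of alternatively activated macrophages, with 6.30, 6.97 and 7.11 CPM in Suv39h1KO cells, against 14.7, 47.2 and 20.5 CPM in wild-type cells (log2 fold change -1.89 ± 0.39, adjusted p = 0.0456). The wild-type libraries were spread over a wide range while the Suv39h1KO libraries lay close together. Dio2, the deiodinase that activates thyroid hormone, had 3.41, 7.05 and 10.3 CPM in Suv39h1KO cells, against 16.2, 24.1 and 33.4 CPM in wild-type cells (-1.88 ± 0.25, adjusted p = 0.00481). Pltp, the phospholipid transfer protein, had 21.5, 21.4 and 31.9 CPM in Suv39h1KO cells, against 60.6, 87.3 and 64.5 CPM in wild-type cells (-1.50 ± 0.16, adjusted p = 0.000698). Neither Dio2 nor Pltp overlapped between genotypes.

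Sema6d, a transmembrane semaphorin and the fall at the highest level among these 15, had 72.8, 136 and 153 CPM in Suv39h1KO cells, against 208, 354 and 285 CPM in wild-type cells (-1.25 ± 0.12, adjusted p = 0.000669). Bst1 and Cd38, neighbouring genes for cell surface enzymes that make cyclic ADP-ribose, fell together. Bst1 had 36.2, 33.4 and 38.9 CPM in Suv39h1KO cells, against 88.8, 92.0 and 97.8 CPM in wild-type cells (-1.36 ± 0.11, adjusted p = 0.00012). Cd38 had 6.999, 5.26 and 6.74 CPM in Suv39h1KO cells, against 17.9, 16.5 and 12.8 CPM in wild-type cells (-1.32 ± 0.13, adjusted p = 0.000698). The other falls were C1qtnf6, a secreted C1q-like protein (-1.76 ± 0.24), the homeobox factor Meis1 (-1.41 ± 0.22), F7, coagulation factor VII (-1.36 ± 0.27), the actin regulator Cttn (-1.26 ± 0.20), the pyrimidine catabolism enzyme Upb1 (-1.17 ± 0.21), the protease inhibitor Slpi (-1.12 ± 0.23), the zinc finger factor St18 (-1.10 ± 0.17), the potassium channel Kcnn3 (-1.10 ± 0.22) and the SIRP family receptor Sirpb1c (-1.06 ± 0.18).

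Of these 30 genes 7 also passed the threshold without the cohort block: Dpp6, Fezf2, Cadps, C1qtnf6, Pltp, Bst1 and Cd38. For the other 23 the adjusted p without the block lay between 0.0625 and 0.67. With 1 library left out at a time, 13 of the 30 were called in all 6 fits and 5 (Cd209a, Ms4a4c, Clec4a1, Upb1 and Slpi) in 0 of them.

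Some changed genes were neighbours of each other. Of the 163, 31 (19%) lay within 200 kb of another changed gene, while 672 of 14175 tested genes that were not called (4.74%) had a changed gene within that distance. The 31 formed 14 groups, and in 13 of the 14 groups all members changed in the same direction. Besides the Sp100 segment and the pair Fezf2 and Cadps, the lectin genes Cd209a, Cd209d and Cd209b rose together (chr8:3743395-3926841). Cd209b had 0.934, 0.983 and 0.632 CPM in Suv39h1KO cells, against 0.107, 0.0247 and 0 CPM in wild-type cells, a low level throughout. F7, F10 and Grtp1 (chr8:13025506-13200766) fell together. F10, coagulation factor X, had 100.2, 94.9 and 126 CPM in Suv39h1KO cells, against 157, 202 and 213 CPM in wild-type cells (-0.82 ± 0.17, adjusted p = 0.0451). The glutathione transferase genes Gstt1 and Gstt2 (chr10:75783813-75837419) fell by 2.17 ± 0.37 and 1.00 ± 0.14 on the log2 scale. Of the 31 genes 10 were also called without the cohort block. The 1 group of mixed direction was Il2rb, which rose, beside C1qtnf6, which fell. Within 20 Mb of Suv39h1 on the X chromosome 80 other genes were tested and 0 were called. Over all genes tested 1.13% were called, so few or no calls are expected among 80. On the whole X chromosome 445 genes were tested, and 8 besides Suv39h1 were called, beside the same 1.13%. The genes in these neighbourhoods are reported in addition to the naming rule, chosen after their values were seen.

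The effect of Suv39h1 loss was then measured in cells without the receptor, in the libraries of the same 3 cohort numbers. Ifnar1 still had 122, 127 and 147 CPM in double-knockout cells, and 146, 156 and 134 CPM in IfnarKO cells. Loss of the receptor is therefore taken from the labels and not from the level of this transcript. Double-knockout cells differed from IfnarKO cells at 192 of 14386 genes (1.33%), 122 higher (0.848%) and 70 lower (0.487%). Of the 163 genes called with the receptor intact, 159 had the same sign without it and 86 passed the threshold in the same direction, which is 52.8% of the first list and 44.8% of the second. Among genes that rose the overlap was 61 of 84 (72.6%), and among genes that fell 25 of 79 (31.6%). The rises were larger, with a median log2 fold change of 1.91 against -1.01, so more of them could pass a second time. These 2 shares therefore do not show that the falls depend on the receptor. No gene was called in both in opposite directions. C130026I21Rik had 235, 294 and 192 CPM in double-knockout cells, against 2.90, 2.73 and 2.50 CPM in IfnarKO cells, a log2 fold change of 6.46 there. Fezf2 had 7.77, 7.03 and 10.1 CPM in double-knockout cells, against 0.417, 0.438 and 0.314 CPM in IfnarKO cells. Both genes stood apart as clearly as with the receptor intact.

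The difference between the 2 effects was tested directly. With edgeR's quasi-likelihood test 0 of 14386 genes (0.0%) passed the threshold. The unadjusted p was under 0.05 for 538 of the 14386 genes, a smaller share than 0.05, and DESeq2 called 7. That none passed does not show that the effects were equal. Igf2bp3, singled out with its values in view, rose by 0.89 ± 0.18 with the receptor and had a log2 fold change of -0.03 without it. By the same edgeR test the difference had an unadjusted p of 0.00417 and an adjusted p of 0.9996. A gene picked for being called in 1 background and flat in the other is no evidence that the effects differed.

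**Figure D3:**
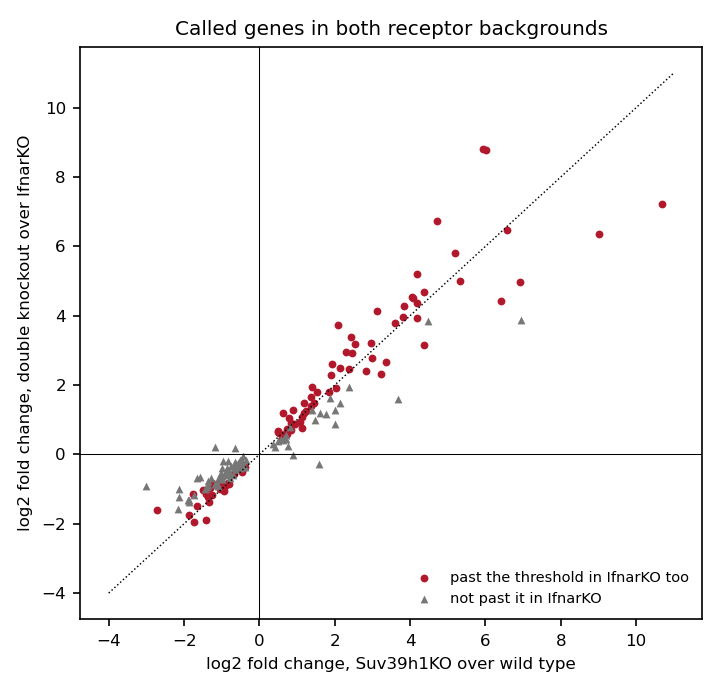
Log2 fold change of double knockout over IfnarKO (y axis) against that of Suv39h1KO over wild type (x axis) for the called genes other than Suv39h1; red circles also passed the threshold in IfnarKO cells, grey triangles did not, and the dotted line marks equal values. Most points lie at the upper right and lower left, as 159 of the 163 genes with Suv39h1 included have the same sign.

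Interferon-stimulated genes did not pass the threshold. Of the 51 tested members of a list of such genes 0 were called in either direction. Over all genes tested 1.13% were called, so few or no calls are expected in a list of this size. The same holds for the lists below. Their median log2 fold change was 0.11, beside 0.01 over all genes, with 37 above 0 and 14 below, and 1 member had an unadjusted p under 0.05. Ly6e, an interferon-induced surface protein and the member at the highest level, had 534, 430 and 373 CPM in Suv39h1KO cells, against 464, 337 and 278 CPM in wild-type cells (0.34 ± 0.14, adjusted p = 0.348). Gbp2, an interferon-induced GTPase, had 192, 204 and 421 CPM in Suv39h1KO cells, against 190, 167 and 403 CPM in wild-type cells (0.13 ± 0.13, adjusted p = 0.76). Both differed more between cohorts than between genotypes. The summed level of the list was 2748, 2845 and 4314 CPM in Suv39h1KO cells, against 2717, 2670 and 3653 CPM in wild-type cells, higher in each cohort pair though the groups overlapped. Without the receptor the median of the list was -0.0087.

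The interferon pathway and the sensors upstream of it gave 0 calls too. None of 17 tested genes of type I interferon and its receptor pathway was called (median 0.02), and Irf5, a transcription factor of this pathway, had 664, 745 and 559 CPM in Suv39h1KO cells, against 635, 647 and 499 CPM in wild-type cells (adjusted p = 0.608). None of 22 nucleic acid sensors and nucleases was called (median 0.02), and Samhd1, a dNTP hydrolase, had a log2 fold change of -0.02 ± 0.08. Likewise 0 of 25 inflammatory cytokines and chemokines (median -0.13), 0 of 20 maturation genes (median -0.04) and 0 of 21 genes of MHC class I presentation (median 0.03) passed. By unadjusted p under 0.05 these 5 lists held 4 members higher and 10 lower. Over all genes tested it was 1845 of 14386, 913 higher and 932 lower. Ccl22, a chemokine of mature dendritic cells, had 1051, 1390 and 3424 CPM in Suv39h1KO cells, against 1263, 1820 and 4378 CPM in wild-type cells (-0.33 ± 0.16, adjusted p = 0.438). The level of Ccl22 was highest in cohort 3 in both genotypes.

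Other writers and readers of repressive chromatin did not pass the threshold. Of 27 tested proteins of H3K9 methylation and heterochromatin, only Suv39h1 was called, and of 13 genes of DNA methylation 0 were. The chromatin remodeller Atrx had 177, 199 and 212 CPM in Suv39h1KO cells, against 197, 224 and 228 CPM in wild-type cells (adjusted p = 0.642). Dnmt1, the maintenance DNA methyltransferase, had 159, 137 and 134 CPM in Suv39h1KO cells, against 163, 160 and 122 CPM in wild-type cells (adjusted p = 0.908). Among genes whose silencing is known to depend on repressive marks, Ndn, a paternally expressed imprinted gene, rose (1 of 15 imprinted genes, beside 1.13% of all genes tested). It had 0.367, 0.339 and 0.664 CPM in Suv39h1KO cells, against 0.0805, 0 and 0 CPM in wild-type cells (adjusted p = 0.024), a low level in both. Of 9 tested germline genes 0 were called.

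Markers of other cells in the culture were examined beside these results. Over all lists 11 members besides Suv39h1 were called, 0 of them without the cohort block (adjusted p 0.117 to 1), and each in at most 2 of the 6 fits that leave out a library. Cd209a, Il3ra, Lgmn and Prss34 were called in 0 of those 6. Of 26 macrophage and monocyte markers Arg1 alone fell, the median log2 fold change was -0.22 and 11 were lower at an unadjusted p under 0.05, with 3 higher. Over all 14386 genes tested 932 were lower and 913 higher by that measure. The summed level of the list was 14490 to 17940 CPM in Suv39h1KO cells and 18200 to 22450 CPM in wild-type cells, without overlap. Lyz2, lysozyme, had 5502, 5511 and 7039 CPM in Suv39h1KO cells, against 7003, 8372 and 10110 CPM in wild-type cells (-0.49 ± 0.19, adjusted p = 0.291). In bulk libraries fewer cells of a type and less RNA per cell cannot be told apart. The part of this shift in the falls of macrophage-expressed genes was not tested.

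Of 20 conventional dendritic cell markers Cd209a rose and Kit, the stem cell factor receptor, fell, and the list was split evenly, with 10 members above 0 and 10 below. Kit had 20.1, 25.9 and 26.1 CPM in Suv39h1KO cells, against 34.2, 41.1 and 31.3 CPM in wild-type cells (-0.56 ± 0.11, adjusted p = 0.0322). The summed level was 3683 to 3906 CPM in Suv39h1KO cells and 3364 to 4034 CPM in wild-type cells. Of 14 genes of MHC class II presentation the lysosomal protease Lgmn fell, with 321, 283 and 444 CPM in Suv39h1KO cells, against 486, 485 and 637 CPM in wild-type cells (-0.62 ± 0.11, adjusted p = 0.0233). Cd74, the invariant chain, had 12060, 13280 and 11840 CPM in Suv39h1KO cells, against 11080, 9886 and 9445 CPM in wild-type cells (0.30 ± 0.15, adjusted p = 0.436). The median of the list was 0.25, with 10 members above 0 and 4 below, so Lgmn went against most of its list.

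Mast cell and basophil markers, 10 tested, held 2 that rose and 1 that fell, with a median of 0.83. Gata2, a factor of these lineages and of progenitors, had 60.7, 90.8 and 31.7 CPM in Suv39h1KO cells, against 44.4, 50.8 and 16.7 CPM in wild-type cells (0.75 ± 0.12, adjusted p = 0.0158). Prss34, a mast cell and basophil protease, had 2.68, 2.80 and 0.538 CPM in Suv39h1KO cells, against 1.18, 0.568 and 0 CPM in wild-type cells (2.08 ± 0.43, adjusted p = 0.0451). The groups overlapped at both genes, and the difference is within cohorts. Summed over the list, the level was 108 to 181 CPM in Suv39h1KO cells and 79.2 to 145 CPM in wild-type cells. Of 19 granulocyte markers Camp, a neutrophil granule peptide, rose within cohorts, with 37.8, 10.6 and 2.36 CPM in Suv39h1KO cells, against 25.8, 6.08 and 1.73 CPM in wild-type cells (0.63 ± 0.10, adjusted p = 0.0158). The spread of Camp between cohorts was far larger than between genotypes. The summed granulocyte list was 1908, 1116 and 704 CPM in Suv39h1KO cells, against 1755, 1336 and 895 CPM in wild-type cells, lower in cohorts 2 and 3 and higher in cohort 1. Its median log2 fold change was 0.20, with 13 members above 0 and 6 below.

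Of 13 plasmacytoid markers Il3ra fell (-0.67 ± 0.11), of 8 B cell markers Blk rose and of 11 T and NK cell markers Il2rb rose, the last pair at low levels. Blk stayed at or below 0.84 CPM, and the summed B cell markers at or below 4.04 CPM, in the 6 libraries. Lists of erythroid and megakaryocyte markers (6 tested) and of fibroblast and stroma markers (14) had 0 calls, with medians of 0.05 and 0.30. Of the fibroblast and stroma markers 11 were above 0 and 3 below. At an unadjusted p under 0.05, 5 of these markers were higher and 1 lower. Of 30 cell cycle genes 0 were called, although 29 had a positive log2 fold change, with a median of 0.29. At an unadjusted p under 0.05, 14 were higher, beside 913 of all 14386 genes tested. Mki67, the proliferation marker, had 435, 442 and 360 CPM in Suv39h1KO cells, against 376, 394 and 243 CPM in wild-type cells (0.32 ± 0.16, adjusted p = 0.442). Lists of p53 targets (20 tested), cholesterol synthesis (22), glycolysis (20), replication-dependent histones (10) and sex-linked transcripts (8) had 0 calls, with medians of 0.14, 0.18, -0.03, 0.15 and -0.15. At an unadjusted p under 0.05 they held 4, 9, 0, 2 and 1 members higher, and 1, 2, 4, 0 and 2 lower. Of the cholesterol genes 18 were above 0 and 4 below.

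**Figure D4:**
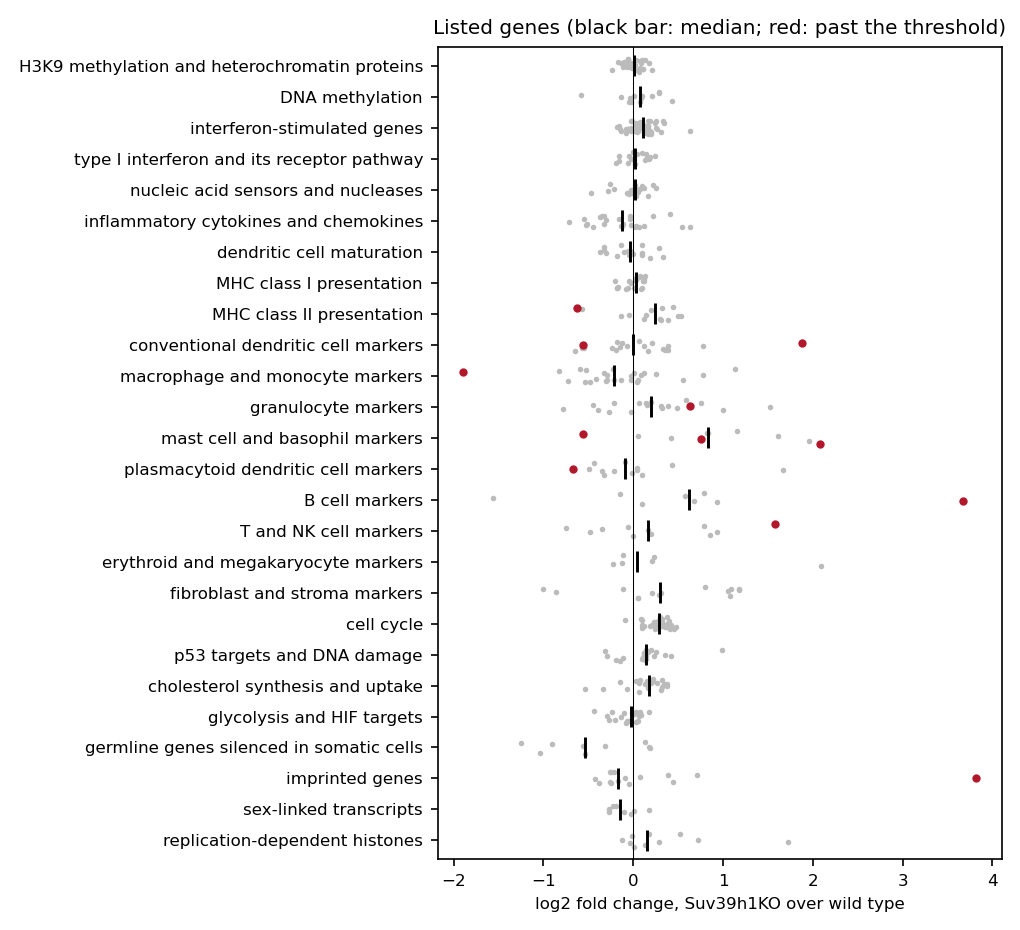
Log2 fold change, Suv39h1KO over wild type, of each tested member (x axis) of 26 gene lists (rows), without Suv39h1; grey points did not pass the threshold, red points did, and black bars are medians. Interferon-stimulated genes and the interferon pathway hold no red point, and the cell cycle list sits to the right of 0 as a whole without a called member.

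The share of counts on TEs overlapped between genotypes, and 3 libraries against 3 cannot reach the threshold in an exact test. TEs of 6 classes held 3.72%, 4.26% and 4.54% of all gene and TE counts in Suv39h1KO cells, against 3.67%, 5.05% and 4.33% in wild-type cells, higher in cohorts 1 and 3 and lower in cohort 2. The means were 4.18% ± 0.42 in Suv39h1KO cells and 4.35% ± 0.69 in wild-type cells (SD, n = 3 each; two-sided exact permutation p = 0.8, where 0.1 is the smallest p possible). Within TE counts, SINEs held 47.95% ± 0.13 in Suv39h1KO cells and 48.03% ± 0.21 in wild-type cells, and LTR elements 28.7% ± 0.08 in Suv39h1KO cells and 28.6% ± 0.32 in wild-type cells (exact permutation p = 0.7 and 0.9). Over the 7 shares compared every p was 0.9 after Benjamini-Hochberg adjustment of the exact permutation values.

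Of 949 TE subfamilies 20 changed (2.11%), 9 higher (0.948%) and 11 lower (1.16%), of which 19 are LTR elements and 16 belong to the ERVK family, beside 590 LTR and 271 ERVK subfamilies tested. The ERVK family holds endogenous retroviruses such as the IAP elements and the mouse mammary tumour virus, MMTV. TE levels are given on the same CPM scale as genes. IAP-d-int, the internal part of an IAP-like element, had 8.34, 9.38 and 12.4 CPM in Suv39h1KO cells, against 3.50, 4.02 and 4.63 CPM in wild-type cells (log2 fold change 1.31 ± 0.13, adjusted p = 6.15e-09). LTR67B, of the ERVL family, had 5.06, 5.53 and 6.37 CPM in Suv39h1KO cells, against 1.72, 2.13 and 1.98 CPM in wild-type cells (1.55 ± 0.15, adjusted p = 1.46e-09). Both stood clear of the wild-type range. ERVB4_3-I_MM-int rose within each cohort, with 3.56, 12.8 and 13.2 CPM in Suv39h1KO cells, against 1.31, 4.13 and 3.16 CPM in wild-type cells (1.73 ± 0.14, adjusted p = 1e-10). Cohort 1 was low in both genotypes, so the groups overlapped.

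In the other direction, MMTV-int had 6.74, 8.44 and 8.52 CPM in Suv39h1KO cells, against 21.98, 28.8 and 23.6 CPM in wild-type cells (-1.64 ± 0.16, adjusted p = 1.46e-09), and RLTR3_Mm, of the same family, had 1.41, 1.47 and 1.49 CPM in Suv39h1KO cells, against 3.47, 3.41 and 2.95 CPM in wild-type cells (-1.17 ± 0.18, adjusted p = 3.16e-05). These separated without overlap. RLTR10D2 (2.11 ± 0.26), IAP1-MM_LTR (0.96 ± 0.15), Ricksha_c (0.85 ± 0.13), RMER20C_Mm (0.56 ± 0.13) and IAP1-MM_I-int (0.46 ± 0.11) were the other named rises. MER34-int (-1.12 ± 0.23), IAPEY5_LTR (-0.86 ± 0.17), MMERVK10D3_I-int (-0.84 ± 0.15), MER31-int (-0.67 ± 0.18), IAPLTR4 (-0.62 ± 0.14) and RMER16_Mm (-0.61 ± 0.17) were the other named falls. Without the cohort block 5 subfamilies were called (0.527%).

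These changes came from few copies. A single copy held between 33.7% and 95.5% of a called subfamily's difference in CPM, with a median of 63.2%, and over 50% in 15 of the 20. The called subfamilies had 2 to 28 copies tested, 17 of the 20 fewer than 13. A large share on 1 copy is therefore partly built in. When the 10 copies with most counts were left out of each subfamily, 6 of the 20 left no value to test, and 0 of 717 subfamilies were called in the edgeR fit (26 with an unadjusted p under 0.05). That removal takes away most of the counts of small subfamilies, so the loss of the calls is largely built in. Of 66 tested members of lists of subfamilies known as young or as targets of H3K9 methylation 3 were called (4.55%, beside 2.11% of all subfamilies). All 3 were among the 17 ERVK elements (17.6%), 1 higher and 2 lower, and in ERV1 (10 tested), ERVL and MaLR (14), young L1 (9), SINE (13) and satellite (3) lists 0 were called. IAPEz-int, the most counted IAP internal part of the list, had 118, 159 and 134 CPM in Suv39h1KO cells, against 141, 186 and 173 CPM in wild-type cells (-0.27 ± 0.09, adjusted p = 0.136). GSAT_MM, the major satellite at pericentromeres, had 0.546, 1.27 and 1.41 CPM in Suv39h1KO cells, against 0.684, 1.63 and 1.36 CPM in wild-type cells (adjusted p = 0.94) in these polyA libraries.

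**Figure D5:**
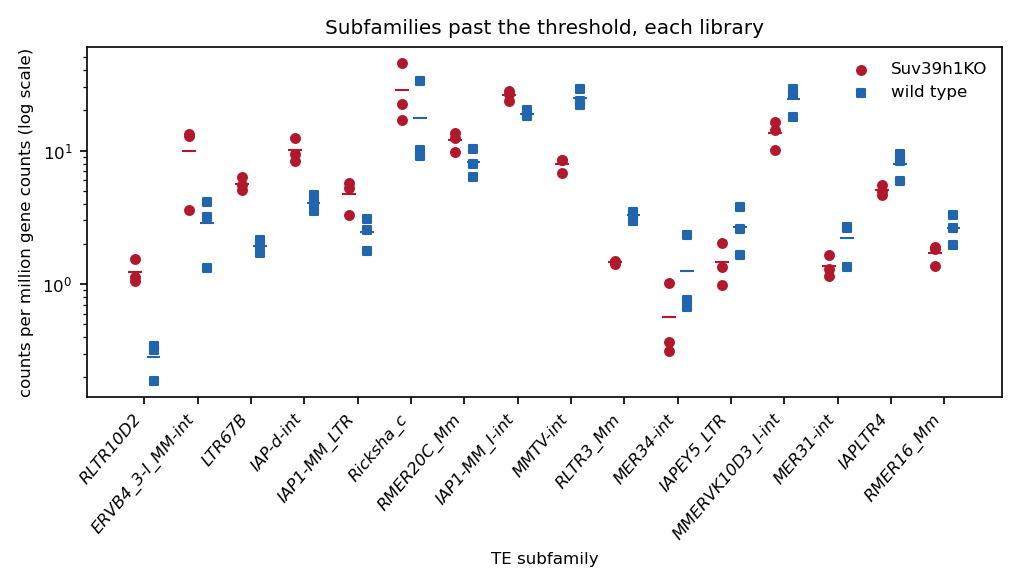
Level in CPM (log axis) in each library for 16 called TE subfamilies that averaged 50 or more counts; red circles are the 3 Suv39h1KO libraries, blue squares the 3 wild-type libraries, and lines are means. The 8 on the left rose and the 8 on the right fell, and 6 of the 16 (ERVB4_3-I_MM-int, Ricksha_c, RMER20C_Mm, MER34-int, IAPEY5_LTR and MER31-int) overlap between genotypes, where 4.21% of all tested subfamilies do not.

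At the level of single copies 383 of 60093 changed (0.637%), 225 higher (0.374%) and 158 lower (0.263%), from 164 subfamilies. By class, 175 of the 383 were LTR copies (93 higher, 82 lower, of 13941 tested), 100 LINE (51 and 49 of 9801), 80 SINE (60 and 20 of 32953), 17 satellite (15 and 2 of 891) and 11 DNA elements (6 and 5 of 2504). Every Suv39h1KO library had 0 counts at 3 called copies, and every wild-type library had 0 counts at 65. The deposited table identifies a copy by a running number without coordinates, and what orders the numbers is not given in the sources used here. Called copies came in runs of nearby numbers: 252 of the 383 fell into 25 runs of at least 4 called copies with gaps of at most 500, and 24 of the 25 runs moved in 1 direction. No matching share is given for copies that were not called, so how unusual such runs are was not measured. The longest run, numbers 149183 to 150198, held 93 copies, all higher, of 177 tested in that span. LTR67B and several SINE subfamilies are among its names. Copies of a run were counted singly in the totals by class. Whether they are read from 1 transcript was not tested.

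The copies with the largest rises were at 0 counts in wild-type cells. A B3 SINE copy, number 150188, had 195, 168 and 136 counts in Suv39h1KO cells and 0 counts in each wild-type library. An MMSAT4 satellite copy, number 904440, had 99, 127 and 113 counts in Suv39h1KO cells and 0 in each wild-type library. Copies of B1_Mus2 (149260), RSINE1 (149258), B1_Mus1 (904444) and B3A (149532) showed the same pattern at 45 to 142 counts in Suv39h1KO cells. All of these copies lie in the runs 149183 to 150198 and 904440 to 904721, so they are not separate observations. The reverse was seen at 2 copies with adjoining numbers. An L2c copy, 4687090, had 0 counts in each Suv39h1KO library, against 229, 187 and 99 counts in wild-type cells, and a PB1D7 copy, 4687091, had 0 in each Suv39h1KO library, against 165, 141 and 75 counts in wild-type cells. Both were also at 0 counts in the 3 double-knockout libraries. Their counts followed those of the knocked-out gene. Suv39h1 had 4554, 3957 and 1859 counts in wild-type cells, and 3999, 3294 and 1838 in IfnarKO cells. The L2c copy had 197, 154 and 95 counts in IfnarKO cells. Whether these 2 copies hold reads of the Suv39h1 transcript was not tested, so they are not counted as separate TE changes. Lx8 (2585604), IAPLTR2_Mm (2585592), RLTR41C (643629) and IAPEz-int (2585591) copies were the next falls, at log2 fold changes between -3.88 and -3.36.

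Single copies behind the subfamily changes had the same pattern. IAP-d-int copy 427365 had 334, 348 and 369 counts in Suv39h1KO cells, against 30, 22 and 46 counts in wild-type cells (log2 fold change 3.11 ± 0.25, adjusted p = 2.52e-09). MMTV-int copy 3084307, which held 95.5% of that subfamily's difference, had 409, 488 and 300 counts in Suv39h1KO cells, against 1384, 2001 and 852 counts in wild-type cells (-2.10 ± 0.17, adjusted p = 2.81e-09). Both were chosen after their values were seen. In cells without the receptor, double-knockout against IfnarKO, 349 copies were called (0.581%; 0.363% higher and 0.218% lower), and 228 of the 383 were among them in the same direction, 170 of the 225 that rose and 58 of the 158 that fell. At subfamilies 17 were called there (1.79%), and 13 of the 20 passed in the same direction.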

How the data were processed

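PolyA RNA libraries (TruSeq Stranded mRNA kit, per the labels' protocols) of untreated dendritic cells were analysed from the raw counts per gene symbol and per repeat copy as deposited by the authors. STAR, HOMER, DESeq2 and mm10 are named in the submitters' processing notes without roles or versions, and the use of strand in counting is not given in the sources used here. Genes and repeats that overlap, antisense genes and near-identical copies can therefore share reads. Totals were 43420953 to 95292653 gene counts and 1967330 to 4300232 TE counts in the 6 libraries compared. CPM intervals are not given per library, and the tests carry the error.

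There were 23755 gene symbols and 3725827 repeat copies, of which 3686444 belong to the classes LINE, SINE, LTR, DNA, RC and Satellite. They were summed by name into 1048 subfamilies. The 12 libraries of experiment 2 were fitted together with edgeR 4.0.16 (R 4.3.3): filterByExpr, TMM, a term per group and a block for cohort, quasi-likelihood F tests and Benjamini-Hochberg adjustment at 0.05. TEs were scaled by gene totals and gene TMM factors, and copies needed 10 counts in 3 libraries. Standard errors were taken from the fold change and its F statistic. Shares were compared by exact permutation (scipy 1.17.1). The scripts were tested on simulated data. The cohort number pairs the libraries: deviations from the group means correlated at 0.366 to 0.797 within a cohort and at -0.666 to 0.043 between cohorts, and every pair of libraries of a group differed beyond sampling noise.

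Genes named are the targets and sex-linked transcripts, the 15 largest rises and 15 largest falls whose higher group averaged 5 CPM or more and whose libraries were free of overlap (provisional and small RNA symbols passed over), and members of 26 gene lists (up to 4 called and 2 of highest level not called). Of subfamilies with at least 50 counts the 8 largest each way, and of such copies the 6 largest each way, were named. The members and lists were chosen with earlier results of these data known. Setdb2, Rlf, Ifi203, Il12b, Ly6g, Cd300c, Ighm, Trac, Trbc2, Piwil4, H19 and Nespas were not analysed here. Alternatives were no block, DESeq2 1.42.0, no filter, only the 6 libraries, each library left out, scaling by repeats, copies with 5 counts, and subfamilies without their 10 most counted copies. The difference of effects on single copies was tested after seeing the data. Gene positions and the sequences before a listed start are from RefSeq, GRCm38.p6, and 14338 of 14386 tested genes had a position.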

Additional observations from a re-analysis of the deposited data

Results flagged for a closer look

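The difference between the effects of Suv39h1 loss with and without the receptor was also tested on single TE copies. By edgeR's quasi-likelihood test 14 of 60093 copies (0.0233%) passed the threshold for the difference of the log2 fold changes, 1 with a positive and 13 with a negative difference, and 0 did so without the cohort block. Among subfamilies 0 passed by the same test, with LTR67B closest (difference 0.95, adjusted p = 0.0699). Of the 13, 12 carry running numbers between 2585585 and 2585618. Their differences were -3.57 (2585591), -3.35 (2585586) and -2.98 (2585590) for IAPEz-int copies, -3.3 (2585592) and -3.2 (2585585) for IAPLTR2_Mm, -3.58 (2585603) and -4.11 (2585604) for Lx8, -3.31 (2585617) and -3.03 (2585618) for L1Md_F2, -4.12 (2585611) for MTC, -5.92 (2585614) for MER5B and -4.61 (2585610) for ORR1A1. IAPEz-int copy 2585591 shows the pattern, with 131, 159 and 4 counts in Suv39h1KO cells, against 446, 1209 and 461 counts in wild-type cells, and 560, 600 and 409 counts in double-knockout cells, against 421, 524 and 308 counts in IfnarKO cells. The Suv39h1KO library of cohort 3 was the lowest of the 12 at this copy and the wild-type library of cohort 2 the highest.

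RLTR11A2 copy 646114 had 0 counts in each Suv39h1KO library, against 0, 57 and 0 counts in wild-type cells, and 0, 700 and 632 counts in double-knockout cells, against 0 in each IfnarKO library. Its fitted difference of -19 rests on groups at 0 counts and is no bound. B1F copy 4516372 had a difference of 1.61, with 563, 332 and 140 counts in Suv39h1KO cells, against 407, 197 and 76 counts in wild-type cells, and 55, 61 and 77 counts in double-knockout cells, against 175, 171 and 97 counts in IfnarKO cells.

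Piwil2, a germline PIWI gene, was higher in every cohort with the receptor intact and lower in every cohort without it. Piwil2 had 67.8, 92.4 and 76.1 CPM in Suv39h1KO cells, against 66.2, 81.7 and 61.4 CPM in wild-type cells, and 64.8, 75.0 and 55.0 CPM in double-knockout cells, against 67.3, 92.5 and 59.6 CPM in IfnarKO cells. The difference of the log2 fold changes of Piwil2 was 0.349, and it did not pass the threshold over all genes (edgeR's quasi-likelihood test, unadjusted p = 0.0165).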

How the results depend on the processing

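Counts of calls moved with the cohort block, the tool and single libraries. Without the replicate block the calls were 30 genes, 5 subfamilies and 161 copies, against 163, 20 and 383 with the pairing. DESeq2 called 486 genes. With only the 6 libraries compared 685 genes were called. Leaving out 1 library at a time gave 40 to 101 genes, 11 to 28 subfamilies and 202 to 319 copies. Without the 10 copies with most counts 0 subfamilies were called, and RMER20C_Mm (-0.18) and MMERVK10D3_I-int (0.21) changed sign. For the difference of effects, DESeq2 called 7 genes, 1 subfamily and 4 copies, the fit without the replicate block 0 copies, and leaving out 1 library gave 0 genes, 0 to 4 subfamilies and 2 to 16 copies. The share of counts on TEs differed by -0.18 percentage points, and by -0.52 to 0.17 when 1 library was left out, turning positive without the Suv39h1KO library of cohort 1 (0.049) or the wild-type library of cohort 2 (0.17). Other settings left the counts within 1.5 times. Suv39h1, the genes and copies named as largest rises or falls, and the provisional-symbol genes that rose kept their direction in every alternative run. For the other named genes and copies the direction was not compared across these runs. With 3 libraries a group, genes of small effect are at the limit of this depth and replication, and the causes of these shifts were not tested.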
